A study of Homo sapiens with 16 samples.

Results

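The comparison described here is the selection effect on soft ECM minus the selection effect on stiff ECM in MDA-MB-231 cells, a triple-negative human breast carcinoma line. For each gene, the ancestral group on soft ECM was subtracted from the soft-selected group as means of log2(FPKM + 1), the matching difference on stiff ECM was subtracted from it, and the result is called the interaction. A positive interaction means that the selected cells stood higher relative to the ancestral cells on soft ECM than on stiff ECM. FPKM counts the sequenced fragments of a gene relative to its length and to how many fragments of that library were mapped. All 16 of the 16 libraries entered the comparison, and 12604 of the 19468 genes in the table passed the rule of an FPKM of 1 or more in at least 4 libraries.

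There were 4 groups of 4 libraries. Ancestral cells on soft ECM and ancestral cells on stiff ECM were cells of the unselected line. Soft-selected cells had been passaged for 75 days on polyacrylamide gels of 1 kPa carrying type I collagen and were measured on soft ECM, and stiff-selected cells had been passaged in the same way on gels of 308 kPa and were measured on stiff ECM. All were wild type, uncloned populations of the same line in serum-containing medium. Each selected population was measured on 1 ECM, the one it had been selected on, so that the interaction joins what selection did and what the ECM did to that population, and these cannot be told apart. In bulk RNA, fewer cells of a kind and less RNA per cell cannot be told apart either. The names of the stiff columns read 3 kPa where the protocol states 308 kPa, and the labelled groups were used.

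Cells hold on to collagen through integrins, which connect the ECM to actin through focal adhesions. Actomyosin contraction puts these links under tension, and the co-activator YAP enters the nucleus of spread cells and binds TEAD factors at genes for growth and adhesion. Cells on soft gels usually stay round, with few stress fibres and little nuclear YAP. The study compared selected with ancestral cells to ask how a cancer cell population adapts to ECM stiffness, and the interaction asks which genes differ in that response between the soft and the stiff arm.

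The libraries held 34284789 to 55473000 reads in genes, with group medians of 46617222 in ancestral cells on soft ECM, 48238897 in ancestral cells on stiff ECM, 37049593 in soft-selected and 37733229 in stiff-selected cells. Ancestral libraries carry the name of one library project and selected libraries that of another. A shift between projects that is the same on soft and stiff ECM on the log scale cancels in the interaction, while in either selection effect alone it cannot be told apart from selection. The summed FPKM of 10 markers of MDA-MB-231 cells lay between 6579 and 7826 in all libraries. That of 10 luminal epithelial markers lay between 822 and 1066, with ESR1 and PGR below an FPKM of 0.1 in every library. CDH5, TEK and VWF of endothelial cells, CD3E and PTPRC of blood cells and DCN, PDGFRA and POSTN of fibroblasts were below an FPKM of 0.1 in every library. The 5 endothelial markers summed to 0.762 to 2.46 and the 9 fibroblast markers to 3.65 to 6.71. On soft ECM the 7 blood cell markers summed to 93.1 to 108 before selection and 123 to 154 after it, and on stiff ECM to 62.6 to 87.0 before and 95.1 to 111 after. Most of that sum was CD68, a lysosomal protein of macrophages, with an interaction of -0.03. CD14, at a mean FPKM of 0.823 to 3.53, had -0.66 (limma adjusted p = 0.223). The part of other cells in the results was not tested. Soft-selected replicate 2 stood apart on the third principal component, at 21.7 against -9.3 to 6.1 in the other 15 libraries. Stiff-selected replicate 4 lay at 1.8 on the second, against 10.5 to 18.9 in the other stiff-selected libraries. Where leaving out soft-selected replicate 2 moved a named result by much, the value without it is given. No source used here ties the libraries to separate cultures. The p-values therefore speak only of the spread from library to library, which could be technical.

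At the adjusted p under 0.01 that the study used, no gene was called for the interaction (0 of 12604, or 0%, limma with Benjamini-Hochberg adjustment). The smallest adjusted p was 0.0142, for RGS5. With limma's voom on the reads recovered from the FPKM values, 0 genes were called as well, and 39 had an adjusted p under 0.05. At an unadjusted p under 0.05 there were 1627 genes (12.9%), of which 648 were higher (5.14%) and 979 were lower (7.77%). At an adjusted p under 0.05 there were 41 genes (0.325%), 12 higher (0.0952%) and 29 lower (0.23%). The same fit called 4652 genes (36.9%) for selection on soft ECM and 3669 genes (29.1%) for selection on stiff ECM at an adjusted p under 0.01.

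The 12604 interactions were small as a whole. Their median was -0.01, the 5th to 95th percentile ran from -0.35 to 0.25, and the median SE of an interaction was 0.12. The median size without sign was 0.11, against 0.21 for the selection effect on soft ECM and 0.18 on stiff ECM. The interaction reached 1 log2 unit in 25 genes (0.198%), 8 of them higher (0.0635%) and 17 lower (0.135%).

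Genes were also counted by whether the libraries of the soft arm and the stiff arm overlapped. Each arm gives 16 differences, of every selected library from every ancestral library on the same ECM. All 16 differences on soft ECM lay above all 16 on stiff ECM in 45 genes (0.357% of genes tested) and below them in 90 genes (0.714%), which makes 135 genes (1.07%). Of the 41 genes at an adjusted p under 0.05, 38 were among these 135. ATP2B2, RAB30 and SEMA3F were the 3 whose differences overlapped.

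The 135 genes had mostly moved in the soft arm. Among the 45 higher genes the median selection effect was 0.47 on soft ECM and 0.09 on stiff ECM. At an adjusted p under 0.01, 33 of the 45 rose and 3 fell with selection on soft ECM, while 12 rose and 9 fell on stiff ECM. Of all genes, 21.5% rose and 15.4% fell on soft ECM, and 18.4% rose and 10.8% fell on stiff ECM. Among the 90 lower genes the median effect was -0.43 on soft ECM and 0.01 on stiff ECM. Of these, 66 fell and 2 rose on soft ECM, while 19 fell and 21 rose on stiff ECM. Since genes were chosen for the difference between the arms, these counts describe the genes and test nothing.

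**Figure D1:**
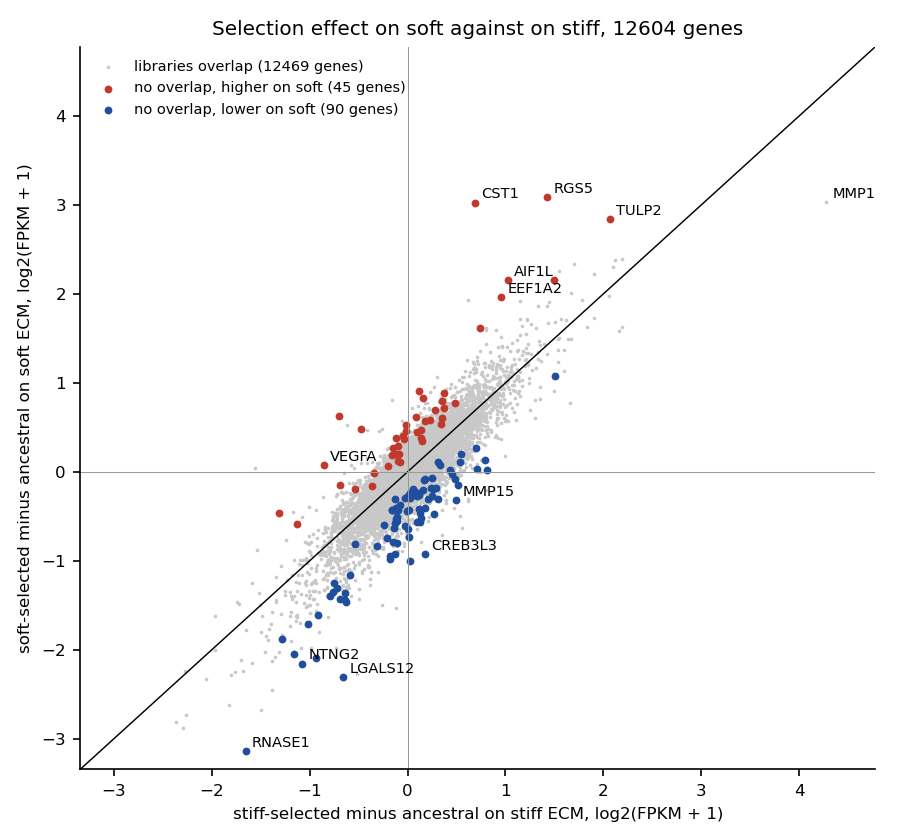
Selection effect on stiff ECM (x axis) against selection effect on soft ECM (y axis) for the 12604 genes tested, each the difference of group means of log2(FPKM + 1), with the 135 genes whose library differences do not overlap in colour and the line of equal effects. CST1 and RGS5 lie above the line, LGALS12 and RNASE1 lie below it, and MMP1 lies far to the right because it rose most on stiff ECM.

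The largest interaction belonged to CST1, which encodes cystatin SN, a secreted inhibitor of cysteine proteases. Its FPKM was 267, 297, 263 and 92.3 in the 4 soft-selected libraries and 21.8, 27.4, 23.3 and 27.5 in ancestral cells on soft ECM. On stiff ECM, stiff-selected cells had 30.5, 26.4, 43.4 and 30, against 23.5, 20.8, 13.4 and 22.2 in ancestral cells. Every soft-selected library was above every other library, and the lowest of the 4 was replicate 4. The selection effect was 3.03 on soft ECM, where CST1 rose, and 0.68 on stiff ECM, where it did not pass (limma adjusted p = 0.0486). The interaction was 2.34 (SE 0.38, 95% interval 1.53 to 3.15, limma adjusted p = 0.0246), and 2.17 without soft-selected replicate 2.

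Reads of CST1 can be shared with genes of similar sequence, so its level and those of its neighbours are uncertain. The part of such sharing was not tested. The coding sequence of CST1 is 92.7% identical to that of CST4 and 91.3% to that of CST2, and 71.7% identical to that of CST3. CST4, another salivary-type cystatin, had an FPKM of 22.3, 34.4, 29.7 and 10.3 in soft-selected cells and 14.2 to 16.9 in ancestral cells on soft ECM. Among the soft-selected libraries, CST4 was lowest in replicate 4, as CST1 was. So were CST2, at 6.53 against 6.89 to 9.85, and CST3, at 672 against 861 to 1060, so that this is not particular to CST1 and CST4. On stiff ECM CST4 was at 3.29 to 7.44 in stiff-selected and 7.12 to 10.3 in ancestral cells, and its interaction was 1.14 (SE 0.37, limma adjusted p = 0.212) with overlapping differences. CST2 and CST3 had interactions of 0.08 and 0.11. On soft ECM the mean of CST2 was 12.6 in ancestral and 8.01 in soft-selected cells, and that of CST3 was 868 and 890.

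RGS5 and RGS4 are neighbours on chromosome 1 and encode regulators of G protein signalling, which shorten the active state of G protein alpha subunits. The FPKM of RGS5 was 55.7, 33.8, 34.6 and 31.0 in soft-selected cells and 3.98, 3.94, 2.64 and 3.8 in ancestral cells on soft ECM. The stiff arm had 8.27, 8.11, 7.95 and 11.2 in stiff-selected and 2.70, 2.46, 2.07 and 3.49 in ancestral libraries. RGS5 thus rose in both arms, by 3.09 on soft and 1.43 on stiff ECM, and the arms did not overlap. The interaction of RGS5 was 1.66 (SE 0.23, 95% interval 1.18 to 2.15), with the smallest adjusted p given above. RGS4 ranged from 8.09 to 12.2 in soft-selected against 4.44 to 6.00 in ancestral cells on soft ECM, and at 7.83 to 8.70 and 6.56 to 8.77 on stiff ECM. The interaction of RGS4 was 0.68 (SE 0.15, limma adjusted p = 0.0814), with a selection effect of 0.83 on soft ECM, where it rose, and 0.15 on stiff ECM.

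Because the TEAD core motif bears on the YAP readout of the study, it was looked for in the 250 bases before the annotated starts (RefSeq, GRCh38.p14). The letters searched were GGAATG on either strand. They occurred in 13.1% of 10370 tested genes with a promoter in the table, in 4 of 32 higher genes (12.5%) and in 8 of 67 lower genes (11.9%) without overlap. Of the 27 genes named by rule, 17 had such a promoter, and RGS5, YAP1 and ITGB1 held the motif. The windows of RGS5 are shown because RGS5 had the smallest adjusted p, and because its starts differ. The window at chr1:163321736-163321985 (minus strand) holds the motif once, on the opposite strand, in capitals, and the window at chr1:163202917-163203166 (minus strand) does not hold it.
RGS5, first window: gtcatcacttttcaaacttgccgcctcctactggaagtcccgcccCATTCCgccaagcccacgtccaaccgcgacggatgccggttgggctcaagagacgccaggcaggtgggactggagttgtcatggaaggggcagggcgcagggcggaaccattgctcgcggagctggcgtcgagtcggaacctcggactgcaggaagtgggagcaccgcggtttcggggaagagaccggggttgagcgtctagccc
RGS5, second window: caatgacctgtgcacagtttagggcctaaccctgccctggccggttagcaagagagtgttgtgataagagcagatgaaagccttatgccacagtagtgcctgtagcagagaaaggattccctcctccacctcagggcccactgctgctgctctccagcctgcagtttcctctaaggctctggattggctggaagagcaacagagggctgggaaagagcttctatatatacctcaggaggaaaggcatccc
A match of these letters is a description and does not show that TEAD binds there.

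3 further genes rose in both arms and more on soft ECM. AIF1L, which encodes an actin-bundling protein, was at 12.9, 10.8, 9.28 and 11.6 in soft-selected and 2.24, 1.26, 1.47 and 1.98 in ancestral cells on soft ECM, and at 5.88, 4.28, 6.28 and 4.05 against 2.04, 2.01, 1.60 and 2.25 on stiff ECM. The soft-selected libraries were all above the stiff-selected ones while the ancestral groups overlapped, and the interaction of AIF1L was 1.13 (SE 0.19, limma adjusted p = 0.0246). EEF1A2, a tissue-restricted form of translation elongation factor 1 alpha, was at 101, 163, 113 and 112 against 32.0, 28.3, 30.3 and 29.6 on soft ECM and at 52.6, 47.5, 37.2 and 51.0 against 25.2, 22.4, 22.6 and 23.9 on stiff ECM. Its highest library was soft-selected replicate 2, and the interaction of EEF1A2 was 1.01 (SE 0.17, limma adjusted p = 0.0246), or 0.86 without that library. TULP2, a gene of the tubby family, was at 14.3 to 19.3 in soft-selected, 9.07 to 9.75 in stiff-selected and 1.17 to 1.80 in all ancestral libraries. With selection effects of 2.84 and 2.07, TULP2 rose in both arms, and its interaction was 0.77 (SE 0.13, limma adjusted p = 0.0246).

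HECW2, CEP128 and XRCC4 showed smaller differences of the same sign. HECW2, an E3 ubiquitin ligase gene, was at 10.6 to 15.2 in soft-selected and 7.67 to 8.81 in stiff-selected cells, against 1.88 to 2.49 in the ancestral libraries, and its interaction was 0.65 (limma adjusted p = 0.0429). CEP128, which encodes a centriole protein, was at 11.7 to 13.5 against 5.78 to 6.72 on soft ECM and at 10.7 to 12.1 against 7.77 to 9.92 on stiff ECM, an interaction of 0.51 (limma adjusted p = 0.0485). The selected groups of CEP128 overlapped, and the ancestral cells on soft ECM were the lowest group. XRCC4, of DNA end joining, was at 24.2 to 31.1 against 16.4 to 17.7 on soft ECM and at 20 to 22.8 against 18.9 to 21.2 on stiff ECM. It rose on soft ECM by 0.62, its effect on stiff ECM was 0.09, and the interaction of XRCC4 was 0.53 (limma adjusted p = 0.0343).

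In VEGFA the positive interaction came with a fall on stiff ECM. VEGFA, the main angiogenic growth factor, was at 59.4, 96.4, 72.9 and 56.2 in soft-selected and 69.2, 60.4, 71.0 and 63.9 in ancestral cells on soft ECM, which overlap. It was at 43.8, 54.4, 47.4 and 51.3 in stiff-selected and 82.8, 90.2, 94.8 and 90.9 in ancestral cells on stiff ECM, which do not. The selection effect on VEGFA was 0.08 on soft ECM (limma adjusted p = 0.611) and -0.86 on stiff ECM, where it fell, with an interaction of 0.93 (SE 0.17, limma adjusted p = 0.0279), or 0.78 without soft-selected replicate 2.

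**Figure D2:**
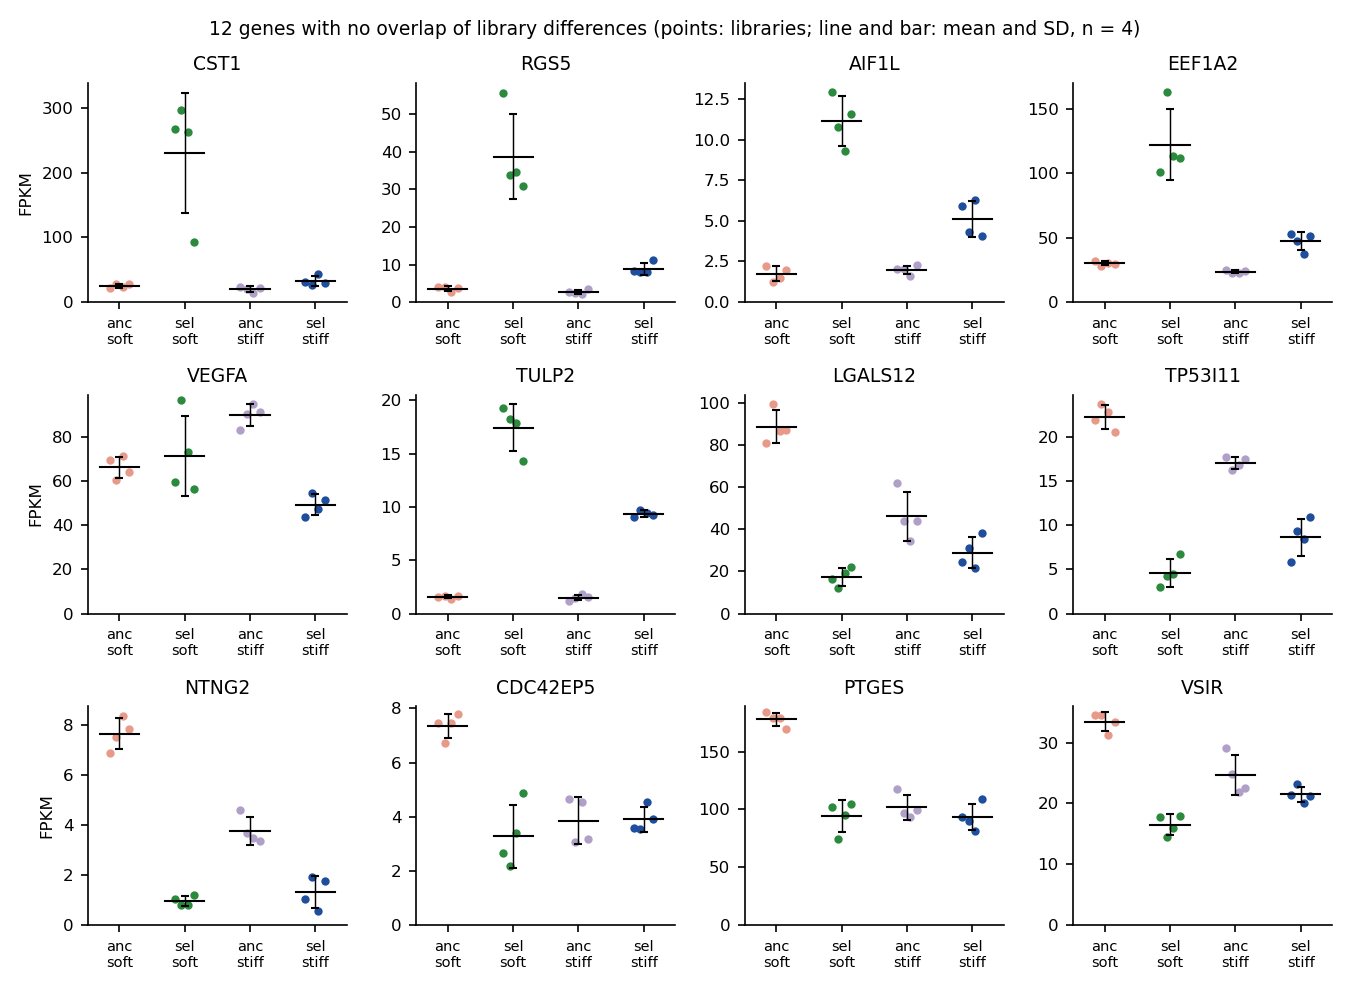
FPKM of 12 genes in each of the 16 libraries (points), by group, with the mean and SD of the 4 libraries of each group. CST1, RGS5, AIF1L, EEF1A2 and TULP2 are highest in soft-selected cells, VEGFA is lowest in stiff-selected cells, and PTGES and VSIR are highest in ancestral cells on soft ECM.

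Among the lower genes, LGALS12 had the largest interaction of those whose differences did not overlap. It encodes galectin-12, a sugar-binding protein known from fat cells. Its FPKM was 16.4, 12.2, 19 and 22 in soft-selected and 80.8, 99.5, 86.7 and 87.0 in ancestral cells on soft ECM. On stiff ECM the stiff-selected libraries had 24.4, 31.2, 21.8 and 38.0 and the ancestral ones 62.0, 44.1, 34.3 and 43.8, where 1 stiff-selected library was above 1 ancestral library. LGALS12 fell by 2.31 on soft ECM and by 0.66 on stiff ECM, with an interaction of -1.65 (SE 0.25, 95% interval -2.19 to -1.11, limma adjusted p = 0.0194). The ancestral cells differed here as well, since LGALS12 was higher on soft than on stiff ECM by 0.96 (limma adjusted p = 0.00164).

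RNASE1, a secreted ribonuclease, was close to 0 in the selected groups apart from stiff-selected replicate 1. Its interaction thus depends on the ancestral cells, on the pseudocount and on that library. The difference of soft minus stiff ECM was 1.22 in ancestral and -0.27 in selected cells. It was at 6.71, 8.69, 8.69 and 7.73 in ancestral cells on soft ECM and at 3.74, 2.38, 2.09 and 3.36 on stiff ECM, which do not overlap. Soft-selected cells had 0, 0.0479, 0 and 0, where the value above 0 is 1 read, and stiff-selected cells had 1.20, 0, 0 and 0. The interaction of RNASE1 was -1.49 (SE 0.29, limma adjusted p = 0.0385) with the pseudocount of 1 and -2.24 with one of 0.1.

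5 more genes fell in both arms and more on soft ECM. TP53I11, a p53-inducible gene, was at 3.04 to 6.77 against 20.6 to 23.8 on soft ECM and at 5.88 to 10.9 against 16.3 to 17.8 on stiff ECM, an interaction of -1.15 (limma adjusted p = 0.0406). NTNG2, the membrane-anchored netrin-G2, was at 0.787 to 1.20 against 6.91 to 8.39 on soft ECM and at 0.571 to 1.93 against 3.38 to 4.60 on stiff ECM, an interaction of -1.07 (limma adjusted p = 0.0416). In NTNG2 the selected groups overlapped, and the ancestral groups did not. FRMD3, a gene of a FERM-domain protein, had an interaction of -0.89 (limma adjusted p = 0.0429), and ARTN, which encodes the GDNF family ligand artemin, of -0.81 (limma adjusted p = 0.0471). FOXO6, a forkhead transcription factor, had one of -0.75 (limma adjusted p = 0.0509). ARTN was at 8.81 to 11.5 in soft-selected and 12.5 to 19.8 in stiff-selected cells, while its ancestral groups, at 27.9 to 33.9 and 24.3 to 29.4, overlapped.

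PTGES, VSIR, CDC42EP5 and CREB3L3 fell on soft ECM and did not pass on stiff ECM. PTGES, the inducible prostaglandin E synthase, was at 184, 179, 179 and 170 in ancestral cells on soft ECM and at 102, 74.4, 95 and 105 in soft-selected cells. On stiff ECM PTGES was at 118, 96.8, 93.6 and 99.4 in ancestral and 93.3, 89.8, 81.7 and 109 in stiff-selected cells. Ancestral cells on soft ECM were thus the group that stood apart, and the difference between soft and stiff ECM was 0.80 in ancestral cells (limma adjusted p = 0.000202) and 0.00 in selected cells. The interaction of PTGES was -0.80 (SE 0.14, limma adjusted p = 0.025). VSIR, an immune checkpoint receptor gene, was at 34.5, 34.6, 31.2 and 33.4 in ancestral and 17.7, 14.4, 16 and 18 in soft-selected cells, and at 21.9 to 29.2 against 20.1 to 23.2 on stiff ECM. VSIR was higher on soft ECM in ancestral cells, by 0.43, and lower on soft ECM in selected cells, by 0.36 (limma adjusted p = 0.00188 and 0.00763), and its interaction was -0.80 (SE 0.12, limma adjusted p = 0.0185).

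CDC42EP5, an effector of CDC42 that shapes septins and actin, was at 2.17 to 4.86 in soft-selected cells against 6.73 to 7.78 in ancestral cells on soft ECM. On stiff ECM its groups overlapped, at 3.55 to 4.56 and 3.07 to 4.65, and the interaction of CDC42EP5 was -1.03 (SE 0.22, limma adjusted p = 0.0484). CREB3L3, a transcription factor gene of the endoplasmic reticulum, had 1.82 in soft-selected replicate 2 and 5.87 to 6.29 in the other soft-selected libraries, against 9.14 to 10.0 in ancestral cells. Its interaction was -1.10 (SE 0.33, limma adjusted p = 0.169) and -0.77 without that library. MMP15, a membrane-type matrix metalloproteinase gene, rose on stiff ECM by 0.50, from 7.95 to 11.1 in ancestral to 10.4 to 14.6 in stiff-selected cells. On soft ECM MMP15 was at 9.16 to 12.1 against 13.2 to 14.3 (effect -0.32, limma adjusted p = 0.021), and its interaction was -0.81 (SE 0.15, limma adjusted p = 0.0343).

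The RhoGAP ARHGAP42, YAP1 and ITGB1, which the study discusses, had interactions within the spread of the libraries. ARHGAP42 fell in both arms, to 4.55 to 7.46 from 12.1 to 12.6 on soft ECM and to 7.29 to 8.32 from 13.7 to 15.1 on stiff ECM. Its interaction was -0.18 (SE 0.13, 95% interval -0.46 to 0.09, limma adjusted p = 0.6), and -0.08 without soft-selected replicate 2. YAP1 was at 143 to 168 in soft-selected cells and 151 to 162 in the other libraries, with an interaction of -0.04 (95% interval -0.19 to 0.11), or 0.01 without that library. ITGB1, the beta 1 integrin, fell by 0.34 on soft and 0.37 on stiff ECM, with an interaction of 0.03 (95% interval -0.15 to 0.21). The intervals of YAP1 and ITGB1 leave out an interaction of 0.25, the 95th percentile of all genes.

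Selection called genes in opposite directions on soft and stiff ECM in 2 cases, chosen after their values were seen. ASB2, a ubiquitin ligase subunit that targets filamins, rose by 0.63 on soft ECM and fell by 0.70 on stiff ECM. Its FPKM was 1.27, 3.06, 3.51 and 1.88 against 0.878 to 1.40 on soft ECM and 0.448 to 1.09 against 1.78 to 2.50 on stiff ECM, and the interaction of ASB2 was 1.33 (SE 0.25, limma adjusted p = 0.0343). AVPI1 fell by 0.30 on soft ECM and rose by 0.21 on stiff ECM. AVPI1 was at 43.7, 40.0, 36.3 and 37.7 against 47.7 to 50.7 on soft ECM and at 50.8 to 56.5 against 43.1 to 48.9 on stiff ECM, and the interaction was -0.51 (SE 0.08, limma adjusted p = 0.0246). In AVPI1 every soft-selected library was below every ancestral one and every stiff-selected library above every ancestral one, and in ASB2 the soft groups overlapped.

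In 10 genes all differences had one sign on soft ECM and the opposite sign on stiff ECM. They were higher on soft in IQGAP1, an actin and GTPase scaffold, PRPF38A, STK24 and UBTF, and lower on soft in AVPI1, DNPH1, EML2, RILP, SLC37A1 and ST14, a membrane serine protease. Their interactions ran from -0.75 for RILP to 0.34 for IQGAP1. IQGAP1 had a mean of 193 in soft-selected against 169 in ancestral cells on soft ECM and 161 against 179 on stiff ECM, with an interaction of 0.34 (SE 0.08, limma adjusted p = 0.0857). ST14 had 3.43 against 4.44 on soft ECM and 5.26 against 4.05 on stiff ECM, with an interaction of -0.62 (SE 0.14, limma adjusted p = 0.0637).

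Of the 25 genes with an interaction of at least 1 log2 unit, 14 had overlapping differences. Among these, PRSS2, CYP1A1 and CST4 were higher, and SLC40A1, ATP2B2, FOLR1, MMP1, SLCO2A1 and ID3 were lower. SLC40A1, the iron exporter ferroportin, had the largest at -1.75 (limma adjusted p = 0.127), with 3.15 to 13.7 against 29.6 to 39.4 on soft ECM and 4.69 to 16.5 against 11.5 to 21.6 on stiff ECM. MMP1, interstitial collagenase, rose more on stiff than on soft ECM, by 4.27 against 3.03, at an interaction of -1.24 (limma adjusted p = 0.0999). PRSS2, a trypsinogen gene, had 7.07, 31.3, 14.1 and 2.62 in soft-selected cells, and its interaction of 1.61 (limma adjusted p = 0.244) was 1.08 without replicate 2.

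Several genes outside the naming rule were among the 41 with an adjusted p under 0.05 and are given as chosen after their values were seen. KLF4, a transcription factor of epithelial and stem cells, had 33.3 ± 2.72 (SD, n = 4) in soft-selected against 23.9 ± 0.645 in ancestral cells on soft ECM and 23 against 23.2 on stiff ECM, an interaction of 0.47 (limma adjusted p = 0.0416). TIPARP, a mono-ADP-ribosyltransferase induced through the aryl hydrocarbon receptor, had 72.1 against 54.3 and 53 against 54.4, an interaction of 0.44 (limma adjusted p = 0.0416). PPARG, the master transcription factor of fat cells, fell in both arms, with 5.54 against 20.3 on soft ECM and 10.2 against 21.5 on stiff ECM, an interaction of -0.69 (limma adjusted p = 0.0279). ELOVL7, a fatty acid elongase, had 3.08 against 8.09 and 5.21 against 8.36, an interaction of -0.57 (limma adjusted p = 0.025). PRR5L, a component of mTOR complex 2, rose on stiff ECM from 10.2 to 18.4 and had 18.1 against 16.4 on soft ECM, an interaction of -0.66 (limma adjusted p = 0.025).

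The same numbers can be read as a difference in the response to ECM, soft minus stiff, between selected and ancestral cells, whose libraries are not shared. At an adjusted p under 0.01 this response was called for 1438 genes (11.4%) in ancestral and 811 genes (6.43%) in selected cells. In ancestral cells 950 genes were higher on soft ECM, by a median of 0.47, and these had a median of 0.26 in selected cells. The direction was the same in 884 of the 950 (93.1%). The 488 genes lower on soft ECM in ancestral cells had medians of -0.31 and -0.19, with the same direction in 469 (96.1%). Of the genes called in selected cells, the 485 that were higher on soft ECM had a median of 0.49 there and 0.34 in ancestral cells, and the 326 that were lower had -0.37 and -0.22. Each set was chosen in one kind of cell, so that a larger median there is no result. Over all genes the median size without sign was 0.14 in ancestral and 0.12 in selected cells. Of the 90 lower genes without overlap, 37 were called higher on soft ECM in ancestral cells. In selected cells 27 of the 90 were called lower on soft ECM. Of the 45 higher genes without overlap, 22 were called higher on soft ECM in selected cells. Among all genes tested the matching numbers were 950, 326 and 485. Genes without overlap were chosen for their interaction, which equals the response of selected cells minus that of ancestral cells. A lean of this kind follows from that choice, so that these counts describe the genes and test nothing.

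Gene lists were then described by their counts at an unadjusted p under 0.05, to be read against 5.14% higher and 7.77% lower of all genes, and by their median interaction, against -0.01. No member of any list reached an adjusted p under 0.01. Of the integrins, which bind collagen and other ECM proteins, 3 of 14 were higher and 0 were lower, with a median of 0.11. Their median difference from the ancestral mean was 0.09, -0.15, 0.02 and -0.06 in soft-selected libraries. It was -0.24 to -0.15 in stiff-selected libraries. ITGB8, which activates TGF-beta, had 4.26 against 2.58 on soft ECM and 1.88 against 3.00 on stiff ECM, an interaction of 0.95 (SE 0.26, limma adjusted p = 0.132). ITGA2, of the collagen receptor, and ITGA5, of the fibronectin receptor, had 0.26 and 0.22. Of the focal adhesion components 1 of 37 was higher and 4 were lower, with a median of -0.03.

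Most members of the RhoGAP and RhoGEF lists stayed near 0. Of the RhoGAPs 1 of 37 was higher and 2 were lower (median -0.01), with ARHGAP11A at 0.31, ARHGAP45 at -0.34 and SRGAP2 at -0.21. Of the RhoGEFs 1 of 43 was higher, AKAP13 at 0.24, and 3 were lower (median -0.07), with ARHGEF17 at -0.45. Of the actomyosin and SRF target genes, 8 of 42 were higher and 2 were lower, with a median of 0.06. The higher ones included the tropomyosins TPM3 (0.37) and TPM4 (0.29) and caldesmon, CALD1 (0.27). The 2 lower ones were FHL2 (-0.26), a LIM domain cofactor, and the myosin light chain MYL12A (-0.21). The lowest value in the list was -0.72 in MYH10, a non-muscle myosin heavy chain, which did not pass (limma adjusted p = 0.422).

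Of the YAP/TEAD target genes 1 of 27 was higher and 6 were lower, with a median of -0.09, which was -0.04 after the trend with GC content was removed and -0.14 without soft-selected replicate 2. The list's median difference from the ancestral mean overlapped between soft-selected (-0.23 to -0.06) and stiff-selected libraries (-0.15 to 0.03). TGFB2 and LATS2 had -0.31 and -0.27, and NT5E had 0.22. Of the TGF-beta pathway and target genes 2 of 30 were higher and 6 were lower, with a median of -0.08. ID1, an inhibitor of basic helix-loop-helix factors induced by BMP signals, had 387 against 505 on soft ECM and 272 against 198 on stiff ECM, an interaction of -0.88 (SE 0.24, limma adjusted p = 0.139). ID3, its relative, had -1.03, and the inhibitory SMAD6 had -0.68. In ancestral cells ID3 was at 380 ± 32.8 (SD, n = 4) on soft and 107 ± 36.1 on stiff ECM, against 281 ± 90.9 and 157 ± 55.7 in selected cells.

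The ECM genes were described in several lists. Of the collagens 1 of 19 was higher and 5 were lower, with a median of -0.17, which was -0.09 with the GC trend removed and also -0.09 without soft-selected replicate 2. The list's median difference from the ancestral mean overlapped between soft-selected (-0.86 to -0.47) and stiff-selected libraries (-0.54 to -0.38). COL1A2, the alpha 2 chain of type I collagen, fell in both arms, with 0.600 against 5.20 on soft ECM and 0.754 against 2.48 on stiff ECM, an interaction of -1.0 (SE 0.24, limma adjusted p = 0.0999) that overlapped. COL4A5 and COL7A1 had -0.73 and -0.52. Of the ECM glycoproteins and proteoglycans 2 of 33 were higher and 8 were lower (median -0.07). HSPG2, the basement membrane proteoglycan perlecan, rose on stiff ECM, with 124 against 75.5, and had 119 against 115 on soft ECM, an interaction of -0.67 (SE 0.15, limma adjusted p = 0.0814). Of the ECM proteases, inhibitors and cross-linkers 4 of 43 were higher and 3 were lower (median -0.01), among them the plasminogen activators PLAT (0.58) and PLAU (0.32). Of the semaphorins, plexins, Eph receptors and ephrins, guidance molecules that also act on adhesion, 3 of 37 were higher and 9 were lower, with a median of -0.07, or -0.01 with the GC trend removed. SEMA3F had -0.92, SEMA3B -0.59 and SEMA3A 0.54, and the semaphorin co-receptor NRP2 had 0.29.

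Cell cycle and mitosis genes had 10 of 48 members higher and 0 lower, with a median of 0.10. Their median difference of soft minus stiff ECM was -0.25 in ancestral and -0.15 in selected cells, so that the list was lower on soft ECM in both. MYBL2, a transcription factor of S phase genes, had 78.3 against 56.8 on soft ECM and 73.3 against 68.7 on stiff ECM, an interaction of 0.36 (SE 0.09, limma adjusted p = 0.0999). MKI67, the proliferation marker, had 249 against 188 and 252 against 236 (0.30), and RRM2 (0.30), CENPE (0.36) and TOP2A (0.18) were also among the 10. The list's median difference from the ancestral mean was 0.07, 0.15, 0.11 and 0.19 in the 4 soft-selected libraries and 0.06, 0.04, 0.01 and -0.06 in the 4 stiff-selected ones. The nearest of these values, 0.07 and 0.06, were close together, and the ancestral spread is left out of them. The pooled SD of the list's median between libraries of a group was 0.047. The count was 6 of 48 with the GC trend removed, with a median that stayed at 0.10. Of the heat shock genes 6 of 20 were higher and 0 were lower, with a median of 0.15, among them HSPE1 (0.32), HSP90AA1 (0.31) and AHSA1 (0.26). The median difference of soft minus stiff ECM of the heat shock genes was -0.25 in ancestral and -0.11 in selected cells. Soft-selected libraries were at 0.13, 0.27, 0.25 and 0.25 and stiff-selected ones at 0.19, 0.04, 0.09 and -0.04 for this list, which overlap, and without soft-selected replicate 2 and stiff-selected replicate 4 its count was 0.

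Of the cholesterol synthesis and uptake genes 0 of 32 were higher and 8 were lower, with a median of -0.15. This list also holds genes of fatty acid synthesis and desaturation, among them SCD, SREBF1 and FASN. SCD, stearoyl-CoA desaturase, was highest in ancestral cells on soft ECM, at 623 ± 56.3 (SD, n = 4) against 432 ± 80.6 in soft-selected, 414 ± 76.8 in ancestral stiff and 418 ± 63.9 in stiff-selected cells, an interaction of -0.56 (limma adjusted p = 0.231). SREBF1, the transcription factor that turns on fatty acid synthesis, had -0.49, FASN, fatty acid synthase, -0.37, LSS, lanosterol synthase, -0.40 and DHCR7 -0.37. The list was at -0.16, -0.29, -0.21 and 0.03 in soft-selected and at 0.00 to -0.03 in stiff-selected libraries, so that soft-selected replicate 4 did not share the difference. Of the oxidative phosphorylation subunits 1 of 76 was higher and 12 were lower, with a median of -0.09. This list was at -0.15, -0.21, -0.10 and -0.21 in soft-selected and at -0.05, -0.15, -0.11 and -0.19 in stiff-selected libraries, which overlap. ATP5O, an ATP synthase subunit, had 90.3 against 133 on soft ECM and 118 against 128 on stiff ECM, an interaction of -0.45 (SE 0.08, limma adjusted p = 0.0279). ATP5O and LSS lie on chromosome 21, which is taken up next.

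Interferon-stimulated genes had 7 of 46 higher and 1 lower (median 0.08). The higher ones included SAMD9 (0.38), an antiviral gene, and ISG20 (0.57), an exonuclease, and the lower one was IFI35 (-0.37). The interferon list's median difference from the ancestral mean overlapped between soft-selected (0.07 to 0.38) and stiff-selected libraries (0.05 to 0.23). Wnt/beta-catenin genes had 0 of 28 higher and 5 lower (median -0.04), among them the Wnt inhibitor DKK1 (-0.47) and CTNNB1 (-0.30), which encodes beta-catenin. EMT factors and markers had 0 of 18 higher and 3 lower (median -0.08), which were KRT81 (-0.93), SNAI1 (-0.41), a repressor of E-cadherin, and KRT7 (-0.33). Cytosolic ribosomal protein genes had 6 of 79 higher and 0 lower (median 0.05), and without soft-selected replicate 2 they had 6 and 3. MAPK feedback inhibitors and AP-1 genes had 1 of 33 higher and 4 lower (median -0.04), and 4 and 4 without that library. Hypoxia and glycolysis genes, which hold VEGFA, had 1 of 36 higher and 3 lower (median -0.04). Clustered protocadherins, cell adhesion genes of chromosome 5, had 3 of 29 higher and 0 lower with a median of 0.02. The mechanosensitive channels and caveolae genes had 0 of 13 in either direction.

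**Figure D3:**
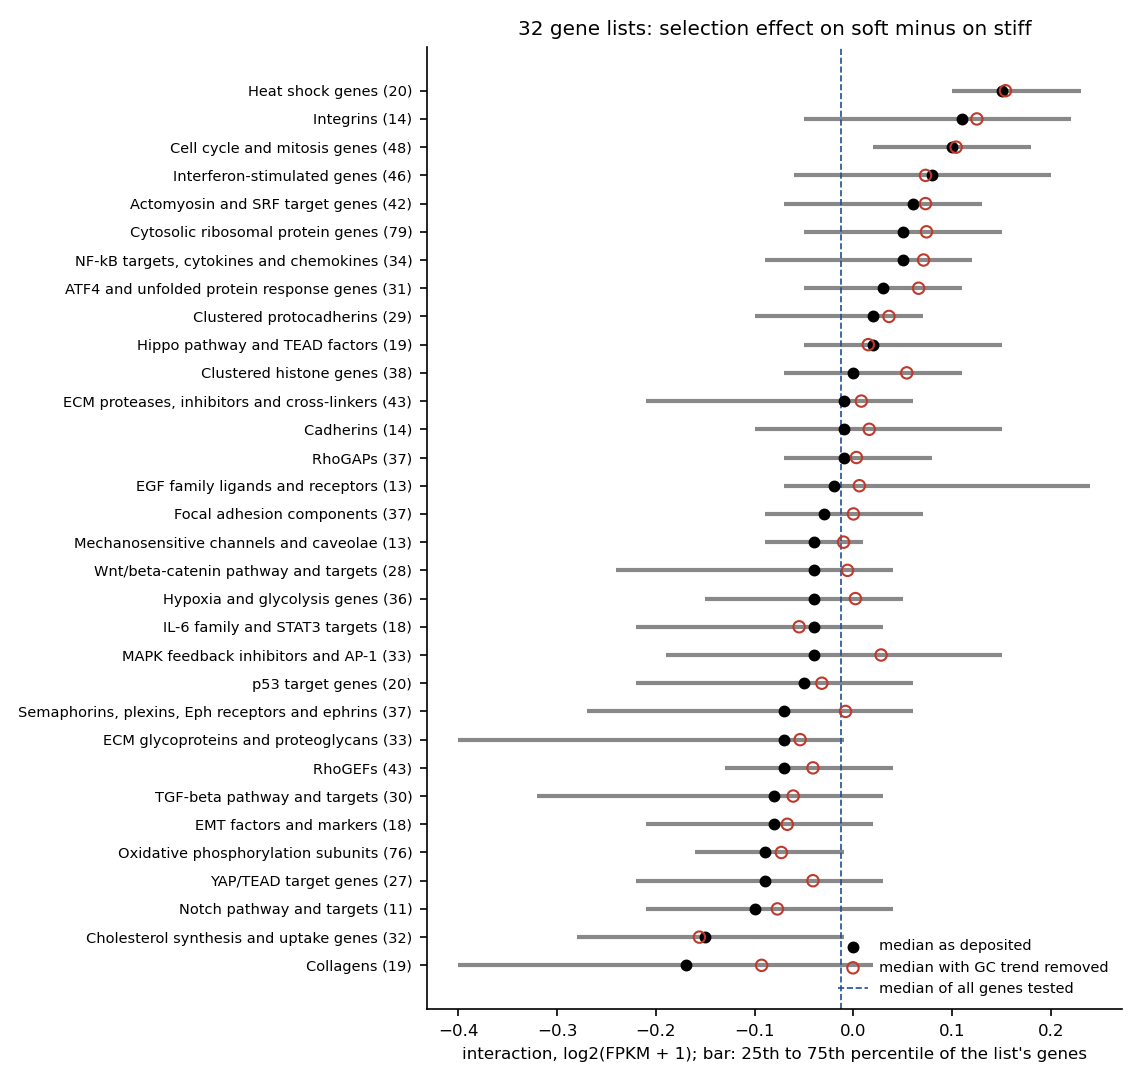
Median interaction on the log2(FPKM + 1) scale of each of 32 gene lists as deposited (filled points) and with the GC trend removed (open points), with bars from the 25th to the 75th percentile of the list's genes and a dashed line at the median of all genes tested. Heat shock and cell cycle genes have medians of 0.15 and 0.10, cholesterol genes and collagens -0.15 and -0.17, and the bars of most lists cross the dashed line.

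The interaction moved with coding GC content. In 5 groups of genes from lowest to highest GC, each of 2498 to 2501 genes, the median interaction was 0.06, 0.02, -0.01, -0.05 and -0.09. Lower genes without overlap numbered 5, 6, 10, 30 and 39 in these groups and higher ones 10, 15, 10, 5 and 5. The difference of median selection effect between the highest and the lowest GC group was 0.09, -0.17, -0.11 and -0.23 in soft-selected libraries, so that replicate 1 went against the other 3, and 0.10, 0.01, 0.00 and 0.04 in stiff-selected ones. These effects also hold the ancestral cells. In ancestral cells the median difference of soft minus stiff ECM was -0.044 in the lowest and 0.137 in the highest GC group. In selected cells it was -0.001 and 0.038. With the trend removed per library, the medians were 0.01 to -0.02, and 78 of the 135 genes still did not overlap. The part of GC content in the interaction of single genes was not tested.

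By chromosome, the median interaction was farthest from 0 on 21 and 15, followed by 11 at -0.078, 22 at -0.075 and 18 at -0.072, which lie close together. Without soft-selected replicate 2 it was -0.030 on 11, -0.062 on 22 and -0.095 on 18. Chromosome 21 had a median of -0.18 over 110 genes, with 1 gene higher and 31 lower at an unadjusted p under 0.05 (28.2% lower against 7.77% of all genes). The median difference of its genes from the ancestral mean was -0.25, -0.35, -0.15 and -0.15 in the soft-selected libraries and -0.11, 0.00, -0.01 and -0.04 in the stiff-selected ones. All soft-selected values were below the stiff-selected ones, with the ancestral spread left out. Without soft-selected replicate 2 the median was -0.11, and with the GC trend removed it was -0.17. ATP5O, C21orf33, C2CD2, LSS, PTTG1IP and SLC37A1 were the 6 genes of chromosome 21 that were lower without overlap, and none were higher.

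Chromosome 15 had a median of 0.14 over 387 genes, with 62 higher (16% against 5.14%) and 9 lower. Here soft-selected replicate 2 was at 0.44 and the other soft-selected libraries at 0.09, 0.10 and 0.06, against 0.00 to 0.05 in stiff-selected libraries. Without that library the median was 0.04. GABPB1, IQGAP1, MORF4L1 and SIN3A were the 4 genes of chromosome 15 that were higher without overlap. Chromosome 11 had a median of -0.08 over 736 genes, with 21 higher and 91 lower (12.4%). Soft-selected replicate 2 was at -0.16 there, against 0.06, 0.00 and 0.03 in the other soft-selected libraries, and without it the median was -0.03. LGALS12, TP53I11, ST14 and ARHGEF17 are on chromosome 11, and the interactions of LGALS12 and TP53I11 without that library were -1.50 and -1.13. ARHGAP42 and YAP1, given above, are also on chromosome 11.

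**Figure D4:**
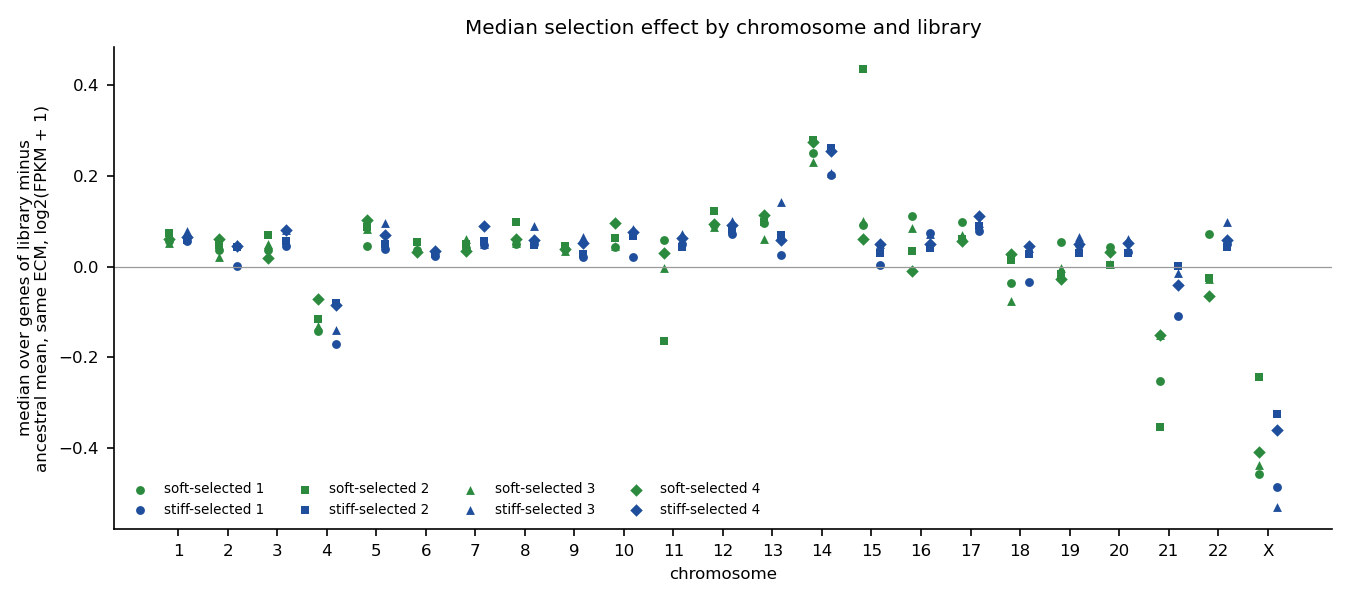
Median difference from the ancestral mean on the same ECM, on the log2(FPKM + 1) scale, of the genes of each chromosome in each of the 4 soft-selected and 4 stiff-selected libraries. Soft-selected replicate 2 lies apart on chromosome 15 at 0.44, all soft-selected libraries lie below the stiff-selected ones on chromosome 21, and all 8 libraries lie below 0 on chromosome X.

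Neighbouring genes were also followed along the chromosomes in 252 stretches of about 50 tested genes. The median interaction was 0.1 or more in 11 stretches, 7 of them on chromosome 15 and 3 on chromosome X, and -0.1 or less in 17, of which 7 were on chromosome 11, 3 on chromosome 22 and 2 on chromosome 21. Without soft-selected replicate 2, these numbers were 1 and 14. That library lay at least 0.15 outside the other 3 of its group in 20 stretches, 9 on chromosome 11, 7 on chromosome 15, 3 on chromosome X and 1 on chromosome 21. The other soft-selected libraries did so in 2, 1 and 4 stretches and the stiff-selected ones in 1, 0, 0 and 1.

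Soft-selected replicate 2 lay apart over part of chromosomes 11 and X and over all of chromosome 15. On chromosome 11 it was between -0.075 and 0.123 in the first 6 of 15 stretches and between -0.33 and -0.19 from the seventh, UQCC3 to SF1, to the last, CRTAM to ACAD8. On chromosome X it was at -0.60 to -0.42 in the first 4 of 8 stretches, at -0.23 in the next, and at 0.16, 0.11 and 0.08 in the last 3, from BEX3 to VAMP7, where the other selected libraries were between -0.66 and -0.39. On chromosome 15 it was at 0.34 to 0.48 in all 8 stretches. The 4 soft-selected libraries lay 0.25 or more apart in 29 stretches and the 4 stiff-selected ones in 4, and the median spread was 0.10 against 0.07. When the median of each stretch was taken out of each library, 72 of the 135 genes still did not overlap. DNA copy number was not analysed here, and the part of such shifts in the interaction was not tested beyond these values.

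**Figure D5:**
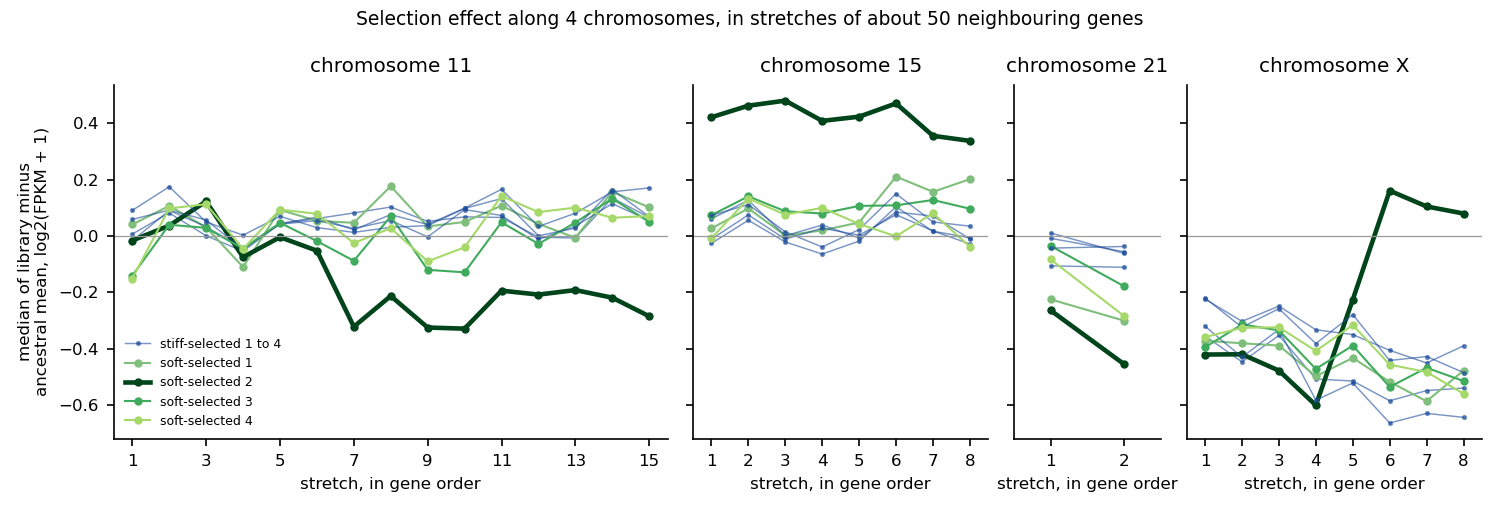
Median difference from the ancestral mean on the same ECM, on the log2(FPKM + 1) scale, of stretches of about 50 neighbouring genes in their order along chromosomes 11, 15, 21 and X, for each soft-selected and stiff-selected library. Soft-selected replicate 2 leaves the other libraries from the seventh stretch of chromosome 11, over all of chromosome 15 and in the last 3 stretches of chromosome X.

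The named interactions were recomputed with these shifts taken out. For CST1, RGS5, AIF1L, EEF1A2, VEGFA and TULP2 the interaction was 2.33, 1.71, 1.17, 1.04, 0.95 and 0.79 with the stretch medians removed. For LGALS12, NTNG2, CDC42EP5, PTGES and VSIR it was -1.52, -1.04, -0.98, -0.73 and -0.78. With the GC trend removed, the interactions of PTGES and VSIR were -0.73 each and that of ARTN was -0.67. In all 24 genes named by size the sign was kept under every alternative tried. These genes were chosen for non-overlap, so that leaving out libraries could not have changed it. The adjusted p values above rest on 4 libraries a group. Leaving out single libraries moved the number of genes at an adjusted p under 0.05 from 1 to 126.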

How the data were processed

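RNA-seq of 16 MDA-MB-231 libraries, 4 in each of 4 groups named by their labels, was used as the authors deposited it: FPKM values for 19468 genes in 1 table, of which 0 sample columns were left unused. The libraries were made from total RNA after ribosomal depletion per the labels. In the submitters' processing notes the aligner is STAR and the build hg19, with no versions. The counting tool and the gene models were not given in the sources used here. FPKM values came in whole steps of 1 read, from which reads per gene were recovered. For 99.98% of genes this was done directly, at a tolerance of 0.001 reads. For the other 4 genes a length in whole bases that gave whole reads was searched for, at a wider tolerance. A read here may stand for a pair. Libraries of a group differed beyond sampling noise in all 24 pairs, with chi-square over its degrees of freedom at 4.55 to 51.27, and each was counted as 1 sample.

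Group means of log2(FPKM + 1) were fitted in limma 3.58.1 (R 4.3.3) to all 16 libraries, for genes with an FPKM of 1 or more in at least 4 libraries, with a trended prior and Benjamini-Hochberg adjustment. For genes of low FPKM this scale gives a difference that is too small. The interaction was (soft-selected minus ancestral on soft) minus (stiff-selected minus ancestral on stiff). The steps were tested on simulated reads that held no shifts by GC content, stretch of chromosome or single library. That test therefore cannot tell how the steps behave under the shifts described here. Other steps used Python 3.11.15, pandas 2.3.3, NumPy 2.4.6, SciPy 1.17.1 and matplotlib 3.10.9. Coding GC content (12497 genes, 99.2%), chromosomes (12590 genes), gene order and promoter sequence came from RefSeq and GENCODE tables of GRCh38, another build than the authors used. From that build only the 2 promoter windows shown carry coordinates.

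Genes were named by rule: the 12 largest and 12 smallest interactions among genes without overlap whose highest group mean was an FPKM of 5 or more, genes called in opposite directions with an interaction adjusted p under 0.01 (0 found), up to 3 list members at that threshold (0 found), and ARHGAP42, YAP1 and ITGB1. The members, the naming rule and the 33 gene lists were chosen with earlier results of these data known, and list counts support nothing by themselves. One of the lists and some genes are not reported here. The alternatives were TPM, a median-of-ratios size factor, a pseudocount of 0.1, no low-value filter, one on mean FPKM, quantile normalization, no trend in the prior, array weights, a replicate block, voom on recovered reads, removal of the GC trend, an adjusted p under 0.05 and leaving out each library. Leaving out soft-selected replicate 2 with stiff-selected replicate 4, and removing the median of each stretch of neighbouring genes, were chosen after seeing the data.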

Additional observations from a re-analysis of the deposited data

Results flagged for a closer look

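Over 154 groups of 4 values (the genes named by rule in all 4 groups and the medians of all 23 chromosomes in both selected groups), 10 held a library far from the other 3 by Dixon's ratio at its 95% critical value, where chance at 1 in 20 gives 7.7. CST1 was at 92.3 in soft-selected replicate 4, against 263 to 297. RGS5 was at 2.64 in ancestral replicate 3 on soft ECM, against 3.8 to 3.98, and at 11.2 in stiff-selected replicate 4, against 7.95 to 8.27. XRCC4 was at 17.7 in ancestral replicate 2 on soft ECM, against 16.4 to 16.5. RNASE1 was at 0.0479 in soft-selected replicate 2 and at 1.20 in stiff-selected replicate 1, against 0 in the other libraries of each group. CREB3L3 was at 1.82 in soft-selected replicate 2, against 5.87 to 6.29, and FOXO6 at 5.89 in ancestral replicate 4 on stiff ECM, against 7.42 to 7.54. The median difference of chromosome 15 genes from ancestral cells was 0.436 in soft-selected replicate 2, against 0.060 to 0.101, and that of chromosome 2 genes was 0.002 in stiff-selected replicate 1, against 0.043 to 0.051.

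In 10 genes all 16 differences went one way on soft ECM and the opposite way on stiff ECM, and the interaction term of the limma fit tested the difference itself. At an adjusted p under 0.05 it passed for AVPI1 (-0.51, adjusted p = 0.0246), DNPH1 (-0.53, adjusted p = 0.0385) and RILP (-0.75, adjusted p = 0.0416). It did not pass for EML2 (-0.36, adjusted p = 0.0814), IQGAP1 (0.34, adjusted p = 0.0857), PRPF38A (0.29, adjusted p = 0.147), SLC37A1 (-0.66, adjusted p = 0.082), ST14 (-0.62, adjusted p = 0.0637), STK24 (0.18, adjusted p = 0.231) or UBTF (0.23, adjusted p = 0.155). None passed at an adjusted p under 0.01. With the GC trend removed, the soft and stiff differences of DNPH1, RILP and STK24 overlapped. With stretch medians removed, those of EML2, IQGAP1, SLC37A1 and STK24 did. SLC37A1 lies on chromosome 21 and IQGAP1 on chromosome 15, whose medians moved in the same direction.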

How the results depend on the processing

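The count of genes called at an adjusted p under 0.01, which was 0, became 1 (lower) without a filter, 2 (both higher) with quantile normalization and 353 (98 higher, 255 lower) with array weights, which gave soft-selected replicate 2 a weight of 0.2953 and ancestral replicate 2 on stiff ECM one of 10.34. It was 41 at an adjusted p under 0.05. Leaving out 1 library at a time gave 0 to 14 genes, with 0 in 11 of 16 cases, 14 without soft-selected replicate 4, 10 without soft-selected replicate 1, 7 without stiff-selected replicate 3, 2 without ancestral replicate 1 on stiff ECM and 1 without stiff-selected replicate 4. Without 1 library, the count at an adjusted p under 0.05 ran from 1 (without ancestral replicate 2 or 4 on soft ECM, or replicate 2 on stiff ECM) to 126 (without soft-selected replicate 1).

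The 135 genes without overlap became 157 (without ancestral replicate 3 on soft ECM) to 389 (without soft-selected replicate 1) when 1 library was left out, where fewer differences have to be apart, and 296 without soft-selected replicate 2 and stiff-selected replicate 4. The higher share of these genes was 33.3%, and 44.2% with TPM (57 higher, 72 lower), 42.3% with size factors (58, 79), 50.3% with quantile normalization (80, 79), 43.7% with the GC trend removed (62, 80) and 44.2% with stretch medians removed (57, 72). All 135 kept their sign under every alternative in which they were tested. Because these genes were chosen for non-overlap, several alternatives could not have changed it. Those were leaving out libraries, array weights, the replicate block, the other filters and the prior without a trend. The 25 genes of 1 log2 unit or more became 91 with a pseudocount of 0.1, 108 with voom on recovered reads, 15 (without soft-selected replicate 2) to 37 (without soft-selected replicate 4) with 1 library left out, and 16 without the 2 libraries named above.

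Of 696 alternative values of the 24 genes named by size, 0 changed sign. These genes were chosen for non-overlap as well, so that many of the values, such as those with a library left out, could not have done so. An adjusted p under 0.01 was reached by 44 of the 696 values, 23 of them with array weights. YAP1 turned to 0.01 without soft-selected replicate 2 and also without both libraries, with a range of -0.07 to 0.01 when 1 library was left out. ITGB1 turned to -0.02 with array weights and -0.01 with the GC trend removed, with a range of -0.01 to 0.07 when 1 library was left out. Of 17 list medians of 0.05 or more in size, the sign changed in 1, NF-kB targets, at -0.020 without soft-selected replicate 3. The replicate block gave 0 calls at an adjusted p under 0.01 and 26 at 0.05 against 41. The correlations of the deviations of same-numbered libraries ran from -0.19 to 0.31, with 6 of 24 pairs above 0.1, so that the numbers were not taken to pair the libraries. The cause of these changes was not tested. At this depth counting error adds to the spread of genes with few reads, such as RNASE1 (0 to 227 reads), CDC42EP5 (43 to 169), AIF1L (34 to 271) and NTNG2 (33 to 667).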
